A study of Sus scrofa with 20 samples.

Results

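Ribosomal protein genes encode the proteins that, together with ribosomal RNA, build the large and the small subunit of the cytoplasmic ribosome. Their mRNAs are among the most abundant of most cells and carry a pyrimidine tract at the start that lets growth signals raise or lower their translation together. A few members have a paralog with restricted expression. The gene for RPL10 lies on the X chromosome, which is silenced during male meiosis, and its autosomal copy RPL10L is known from testis germ cells.

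The genes were chosen by name. Of 21755 reference IDs in the count data, 6654 could be paired with a pig gene symbol through a RefSeq table, and 46 IDs of 45 genes had a symbol starting with RPL or RPS and a number, or were RPSA or RPLP0. The IDs of 4 RPS6K kinases were left out. One of the 46, RPS19BP1, carries the name pattern but is a binding partner of RPS19 and not a ribosomal protein, and it is described apart. The other 45 IDs stood for 44 genes, 24 of the large subunit and 20 of the small subunit, with a pair of IDs for RPS25. Another 39 of the 84 symbols that fit the name pattern in the RefSeq table had no matched ID, among them RPL3, RPL4, RPS4X, RPLP1 and RPLP2, and are not analysed here. The reference IDs are named as the files give them, for example NM_001044543.1 for RPL10, XM_003121787.1 for RPL10L and NM_001098598.1 for RPLP0, and no genome coordinates were used.

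Testis and liver of 10 boars were profiled by RNA-Seq, 5 boars with a high and 5 with a low level of the steroid androstenone in fat, which gave 20 libraries in 4 groups of 5. The labels give 116 days as the age, an average over the animals, which came from 1 cross of Duroc with a line bred from Leicoma, German Landrace and Large White pigs, and the labels name no treatment. Androstenone, made in the testis and broken down mainly in the liver, is a main source of boar taint. Full-length cDNA was amplified from total RNA of frozen whole tissue before library preparation, so testis libraries mixed germ cells, Leydig cells and Sertoli cells.

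Testis libraries held between 6161397 and 15975386 counts and liver libraries between 5796973 and 26783002. The limit that a count of 0 allows, 3 counts, corresponded to at most 0.487 CPM (counts per 1000000) in testis and 0.518 CPM in liver. The tissue labels held against marker genes. The 4 hepatocyte markers ALB, APOA1, SERPINA1 and TF summed to between 68260 and 142290 CPM in liver and to at most 152.7 CPM in testis, whereas 4 spermatid markers summed to at least 997 CPM in testis and at most 135.8 CPM in liver. The 4 Leydig cell markers CYP17A1, HSD3B1, INSL3 and LHCGR summed to 995 CPM or more in each testis. Most of this sum came from INSL3 (mean 1579 CPM) and CYP17A1 (mean 290 CPM). HSD3B1 averaged 3.15 CPM in testis and 6.02 CPM in liver, so it did not set testis apart. In bulk tissue, fewer cells of a type and less RNA per cell cannot be told apart.

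The 45 ribosomal protein IDs took a larger share of all counts in testis than in liver. In testis the share had a lowest value of 3.49%, a median of 4.45% and a highest value of 6.58%, and in liver the values were 2.76%, 3.43% and 4.51%. The ranges overlapped, but only 1 liver, the low androstenone sample of replicate 2, exceeded the median testis. The mean was 4.59% ± 0.86 (SD, n = 10) in testis and 3.42% ± 0.52 (SD, n = 10) in liver, a difference of 1.17 percentage points (two-sided permutation test with 100000 resamples, p = 0.00086). Counting error was small beside this spread, since the widest 95% Wilson interval of a library spanned 0.038 percentage points.

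**Figure D1:**
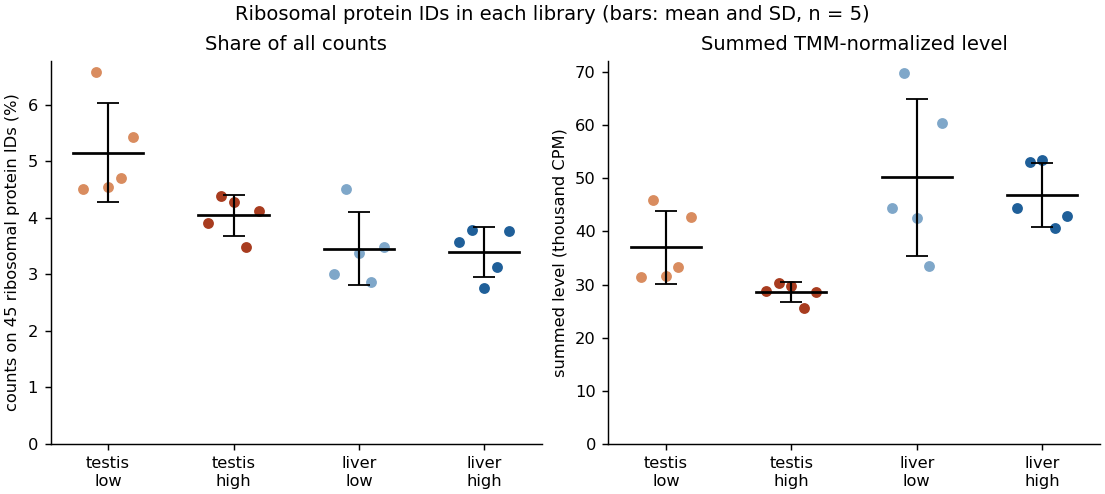
Ribosomal protein IDs in each library, by tissue and androstenone group. The left panel gives the percent of all counts on the 45 IDs and the right panel their summed TMM-normalized level in units of 1000 CPM; points are libraries, bars the mean and SD of 5 libraries. The testis means lay above those of liver in the share and below them in the normalized level, and in testis all 5 high androstenone libraries lay below the 5 low ones in both panels.

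The direction of the tissue difference depended on what the counts were set against. Liver counts were concentrated on a few genes, with between 24.8% and 40.6% of a library on its 10 most counted IDs, against 8.10% to 18.2% in testis. Without the 10 most counted IDs that are not ribosomal protein IDs, the share was 5.21% in testis and 4.97% in liver, and the difference of 0.239 percentage points did not pass the test (permutation test, p = 0.63). Taking out the 10 most counted IDs whatever their kind gave 4.39% and 4.97%, a difference of -0.576 percentage points (permutation test, p = 0.196), but that step removed RPLP0, a member, from all 10 testes and 0 livers. Scaled by TMM, a method that sets the libraries level on the bulk of their IDs, the summed level was lower in testis, at 32779 CPM against 48555 CPM in liver (permutation test, p = 0.00074). The following fold changes are on the TMM scale, where the median log2 fold change of all 19065 IDs tested was 0.31 in the direction of testis. Scaling to total counts alone moved that median to 1.28.

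Of the 45 IDs tested between the tissues, 2 were called higher in testis, 24 were called lower in testis and 19 were not called. A call needed an adjusted p under 0.05 in edgeR's quasi-likelihood test with Benjamini-Hochberg adjustment over all IDs and a fold change of at least 1.5. Over all IDs tested, 43.5% were called higher and 32.2% lower in testis. The median log2 fold change of the ribosomal protein IDs was -0.67, which is 0.98 below that of all IDs. With total counts alone 15 IDs were called higher and 2 lower, and the median turned to 0.34, yet it then lay 0.94 below that of all IDs. Under both scalings 42 of the 45 IDs lay below the median of all IDs (RPLP0, RPL10L and RPSA lay above), which is a count with no test. More IDs were tested within testis (18340) than within liver (15855). IDs with few liver counts may therefore draw the median of all IDs towards testis, and their part in these distances was not tested.

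Both subunits had IDs called lower in testis, in unequal numbers. Of 24 large subunit IDs, 16 were called lower and 2 higher in testis, with a median log2 fold change of -0.81, which was 0.17 with total counts alone. Of 21 small subunit IDs, 8 were called lower and 0 higher, with a median of -0.51, which was 0.48 with total counts alone. The ratio of large to small subunit counts within a library, which does not depend on scaling, was 1.39 in testis and 1.59 in liver (difference -0.208, permutation test, p = 0.00446, n = 10 each).

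**Figure D2:**
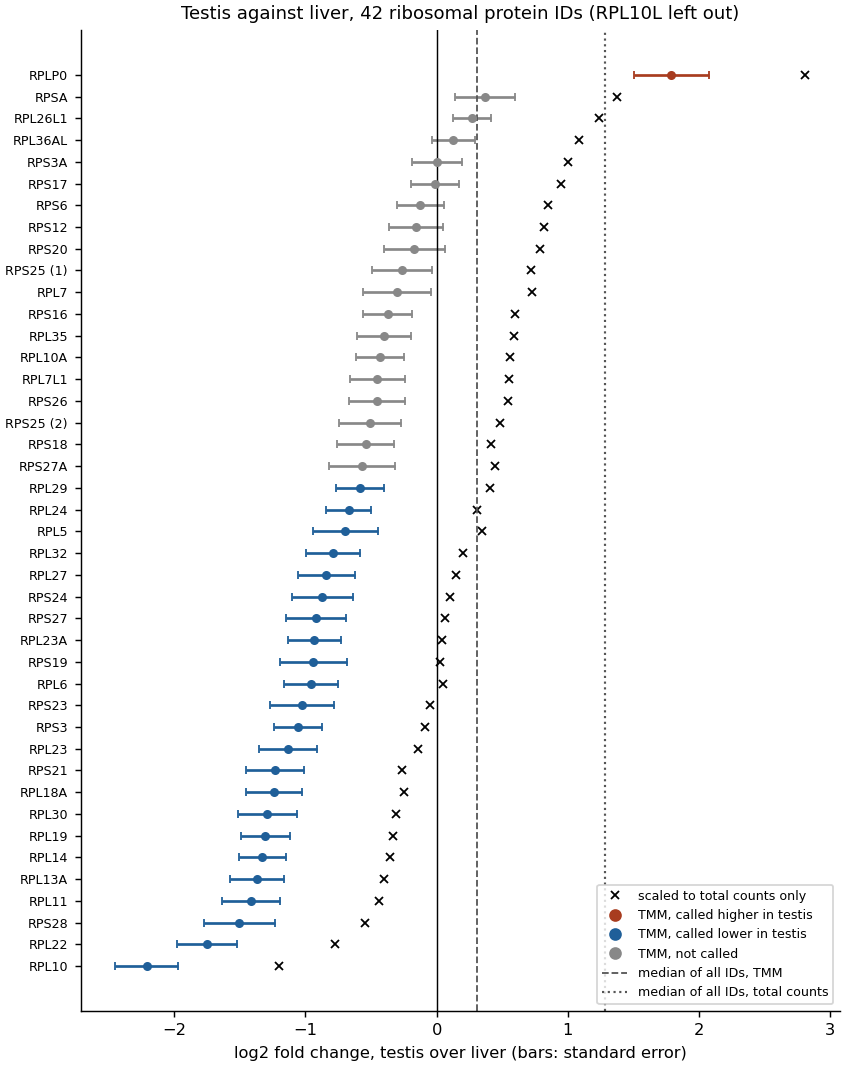
Log2 fold change of testis over liver for 42 ribosomal protein IDs, ordered by size, with RPL10L left out because its liver counts were near 0. Circles with standard errors are on the TMM scale and coloured by call, crosses are scaled to total counts only, and the dashed and dotted lines give the median of all IDs under each scaling (0.31 and 1.28). The order of the IDs was similar under both scalings, with RPL10 and RPL22 lowest and RPLP0 highest.

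RPL10, which sits near the site where the subunits are joined and is the X-linked core member measured here, was the member furthest below in testis. Its level had a lowest value of 785 CPM, a median of 1297 CPM and a highest value of 2213 CPM in testis. In liver the values were 3762, 5940 and 9919 CPM. Every testis lay below every liver. The level in liver was 4.64-fold that in testis (log2 fold change -2.21 ± 0.24, SE, edgeR adjusted p = 6.58e-09), and RPL10 stayed called lower with total counts alone.

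RPL10L, the autosomal copy of RPL10, showed the reverse. Its level in testis ranged from 179 to 331 CPM with a median of 238 CPM. In liver it was at 0 in 7 libraries and had 6, 1 and 1 counts in the other 3, and it was called higher in testis under each scaling tried. Pooled over libraries, 38026 counts in testis stood against 8 counts in liver, a ratio of 5564 after division by total counts (95% interval from 2824 to 12888 by the exact Poisson interval of the liver count, counting error only). Of the 8 liver counts, 6 came from the low androstenone liver of replicate 1, and without it the other 9 livers held 2 counts and the ratio was 19751 (95% interval from 5467 to 163090, counting error only). In testis RPL10L made up between 8.91% and 24.3% of the counts on both genes, with a mean of 16.7% ± 5.1 (SD, n = 10), a share of counts that was not corrected for transcript length.

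RPLP0, which anchors the stalk of acidic proteins that recruits elongation factors to the large subunit, was the other member called higher in testis. Its level was 3813 CPM in the lowest, 4585 CPM in the median and 6838 CPM in the highest testis. In liver the values were 361, 1261 and 2622 CPM. No liver reached the lowest testis, and the level in testis was 3.46-fold that in liver (log2 fold change 1.79 ± 0.29, SE, edgeR adjusted p = 4.05e-06). RPLP0 was among the 10 most counted IDs of each of the 10 testis libraries and of 0 livers. Over the 4 groups it had the largest SD within groups, 0.66 on the log2 scale, followed by RPS28 at 0.65 and RPS27A at 0.61. That of RPLP0 came from liver, where its SD within groups was 0.89, against 0.26 in testis. RPS28 had 0.72 in liver and 0.56 in testis, and RPS27A had 0.81 and 0.30.

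**Figure D3:**
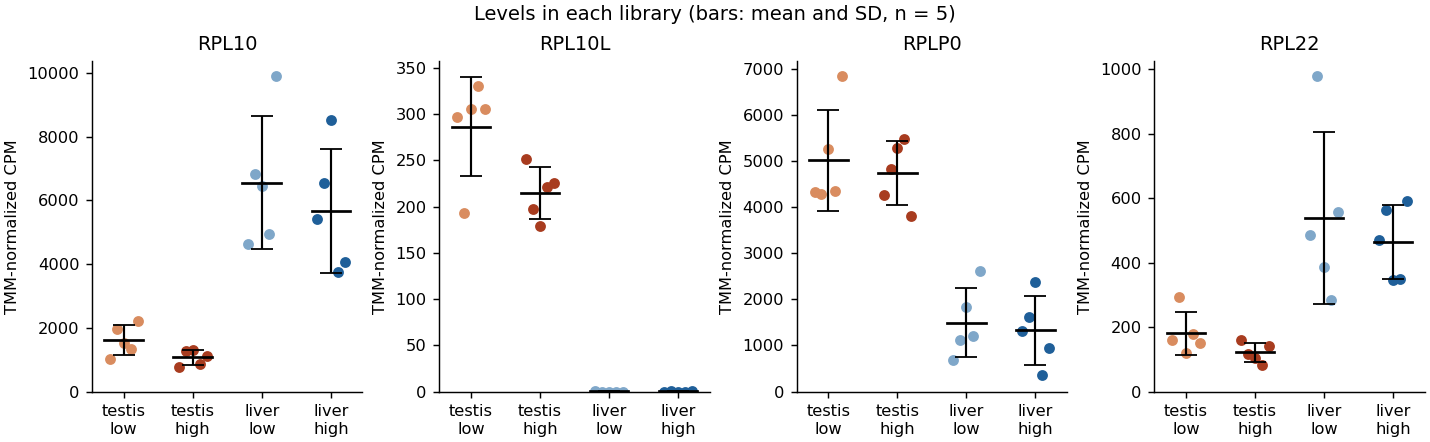
TMM-normalized level in CPM of RPL10, RPL10L, RPLP0 and RPL22 in each library, by tissue and androstenone group; points are libraries, bars the mean and SD of 5 libraries. RPL10 and RPL22 were higher in liver, RPLP0 was higher in testis, and RPL10L was at or near 0 in liver.

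RPL22, an RNA-binding protein on the outer face of the large subunit, followed RPL10 among the lowest members. Testis levels were 83.9 CPM at the lowest, 146 CPM at the median and 294 CPM at the highest, and liver levels were 285, 478 and 980 CPM. Among the testes, low androstenone replicate 2 alone reached above the lowest liver. The fold was 3.37 in favour of liver (log2 fold change -1.75 ± 0.23, SE, edgeR adjusted p = 1.42e-07), and this call too held with total counts alone.

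RPS28, a small subunit protein near the mRNA exit, and RPL11 came next. RPS28 had a median of 61.3 CPM in testis and 179 CPM in liver, with overlapping ranges (log2 fold change -1.50 ± 0.27, SE, edgeR adjusted p = 1.99e-05). RPL11 binds 5S ribosomal RNA together with RPL5, and the same particle can restrain MDM2, the inhibitor of p53. The median of RPL11 was 277 CPM in testis and 730 CPM in liver (log2 fold change -1.42 ± 0.22, SE, adjusted p = 2.19e-06). RPL5, its partner, differed less, with a median of 921 CPM in testis and 1284 CPM in liver (log2 fold change -0.70 ± 0.25, SE, adjusted p = 0.013). The calls of RPS28, RPL11 and RPL5 were lost with total counts alone.

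Besides RPL10, the members whose levels separated the tissues without overlap in the direction of liver included RPL14 and RPL19. RPL14 ranged up to 782 CPM in testis and from 884 CPM in liver. RPL19, a protein near the exit of the nascent chain, ranged up to 1453 CPM in testis and from 1658 CPM in liver. Both were singled out after their values were seen. Their log2 fold changes were -1.33 and -1.31 and were not called with total counts alone.

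Of the paralogs, RPL10L and RPL7L1 could be set beside their core partners RPL10 and RPL7. Of 4 paralogs measured, RPL10L was called higher in testis and RPL7L1, RPL26L1 and RPL36AL were not called, although with total counts alone all 4 lay above 0. RPL10 was called lower in testis and RPL7 was not called. RPL22 and RPS27, core members whose own paralogs had no matched ID, were also called lower. RPS27 had a median of 56.1 CPM in testis and 107 CPM in liver (log2 fold change -0.92 ± 0.23, SE, adjusted p = 0.00077), but with total counts alone its value turned to 0.064 and the call was lost. RPL26L1 ranged from 66.4 to 109 CPM in testis and from 49.3 to 86.8 CPM in liver (log2 fold change 0.27 ± 0.14, SE, adjusted p = 0.0887). RPL36AL ranged from 234 to 365 CPM in testis and from 181 to 348 CPM in liver (log2 fold change 0.13 ± 0.17, SE, adjusted p = 0.482). RPL7L1, a paralog of RPL7 with a part in ribosome assembly, kept within 41.9 and 54.9 CPM in testis but ranged from 27.6 to 118 CPM in liver. The core partners RPL26 and RPL36A had no matched ID, so these paralogs could not be set against them.

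RPSA, a small subunit protein that also occurs as a laminin receptor, and RPS3A did not differ in level by the call, with log2 fold changes of 0.37 ± 0.23 (SE, edgeR adjusted p = 0.138) and 0.0035 ± 0.19 (SE, edgeR adjusted p = 0.987), although both were called higher in testis with total counts alone. RPS27A, which is made as a fusion with ubiquitin, had a log2 fold change of -0.57 ± 0.25 (SE, adjusted p = 0.0403), below the fold required.

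Expressed as a percent of the ribosomal protein counts of its own library, a member can be compared between tissues without any scaling between libraries. By this measure 11 of the 45 IDs were higher and 16 lower in testis at a Benjamini-Hochberg adjusted p under 0.05 over the 45 (two-sided permutation tests with 100000 resamples), and such percents must sum to 100 in each library. RPLP0 held 15.2% ± 3.2 of the ribosomal protein counts in testis and 2.89% ± 1.3 in liver (SD, n = 10 each). RPL10 held 4.03% ± 0.75 in testis and 12.6% ± 2.8 in liver. For both the ranges of the tissues did not overlap (permutation p = 6e-05, adjusted p = 0.00021).

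The ranges of the tissues also did not overlap for other IDs in this percent. RPL10L, RPL26L1, RPS3A and RPSA were higher in every testis than in every liver, RPSA at 4.24% ± 0.73 against 2.17% ± 0.64 and RPS3A at 4.68% ± 0.30 against 3.12% ± 0.37. RPL14 and RPL22 were lower in every testis, RPL14 at 1.34% ± 0.19 against 2.30% ± 0.38. RPS27A had means of 0.900% ± 0.10 in testis and 0.893% ± 0.36 in liver (permutation p = 0.956).

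RPL13A stood at between 1.38 and 6.81 CPM in all libraries, a level at which its ID XM_003127307.1 rested on few counts beside the other members. RPS19BP1, the binding partner of RPS19, was at 56.1 to 100 CPM in testis and 110 to 176 CPM in liver, with no overlap between tissues on this scale (log2 fold change -1.07 ± 0.15, SE, edgeR adjusted p = 3.98e-07).

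Other genes of translation were called in both directions between the tissues, to be read against 43.5% of all IDs called higher and 32.2% lower in testis. Of 9 IDs of translation factors and other growth-regulated mRNAs of the same class, 2 were called higher and 1 lower in testis, with a median log2 fold change of -0.24 that became 0.77 with total counts alone. PABPC1, the poly(A)-binding protein, was higher in testis (1.11 ± 0.16, SE, adjusted p = 1.12e-06) and TPT1, a growth-regulated protein, was lower (-1.68 ± 0.28, SE, adjusted p = 6.24e-06). Of 13 IDs for ribosome assembly, 1 was called higher and 6 lower, with a median of -0.58 that became 0.35 with total counts alone. WDR12, a factor of large subunit maturation, was higher in testis (3.11 ± 0.17, SE, adjusted p = 1.72e-14), and BYSL, a factor of small subunit maturation, was lower (-1.88 ± 0.22, SE, adjusted p = 1.82e-08).

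Of 30 IDs for mitochondrial ribosomal proteins, 5 were called higher and 16 lower in testis, with a median of -0.69 that became 0.30 with total counts alone. MRPL38 was the lowest of these (-2.71 ± 0.21, SE, adjusted p = 8.65e-12) and MRPL39 the highest (1.14 ± 0.25, SE, adjusted p = 0.00026). The cytoplasmic ribosomal protein IDs had 24 of 45 called lower and a median of -0.67, so the lower level in testis was not particular to them. Of 6 IDs of translational signalling, 2 were called higher and 4 lower under both scalings. EIF4E, which binds the mRNA cap, was higher in testis (2.18 ± 0.26, SE, adjusted p = 3.58e-08), and EIF4EBP2, which holds EIF4E inactive, was lower (-2.86 ± 0.19, SE, adjusted p = 4.19e-13). Set against the median of all IDs, the medians of these 4 groups and of both subunits lay below it under both scalings. That median also covers IDs with few liver counts, since more IDs were tested within testis (18340) than within liver (15855). Such IDs may draw it towards testis, so a place below it does not by itself set these groups apart from other genes expressed in both tissues. A median without such IDs was not tested.

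In testis, ribosomal protein IDs took a smaller share of the counts of high androstenone boars than of low androstenone boars. The low androstenone testes had 4.51%, 6.58%, 4.54%, 4.70% and 5.42%. The high androstenone testes had 3.91%, 4.39%, 4.28%, 3.49% and 4.12%. Every high androstenone testis lay below every low one. The means were 5.15% ± 0.88 and 4.04% ± 0.36 (SD, n = 5 each), a difference of -1.11 percentage points (exact two-sided permutation test, p = 0.00794, the smallest that 5 against 5 samples allow). Leaving out 1 testis at a time gave differences from -1.27 to -0.756 percentage points. The exact permutation p was 0.0159 each time, the smallest possible with 1 testis left out. It had to take that value because the groups do not overlap, so it adds nothing to the first test.

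The large and the small subunit shared in this. Large subunit IDs held 2.33% of counts at high and 3.01% at low androstenone (exact p = 0.00794), and small subunit IDs held 1.71% and 2.14% (exact p = 0.0159). Without the IDs of non-coding RefSeq records, which took between 5.16% and 17.2% of a testis library, the difference was -1.30 percentage points (exact p = 0.00794). In summed TMM level the groups also did not overlap, with means of 28557 CPM for high and 37001 CPM for low androstenone (exact p = 0.00794).

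Single members did not pass the test across all IDs. In edgeR's quasi-likelihood test 0 of the 45 IDs were called between high and low androstenone testes, as were 0% of all 18340 IDs tested, and the lowest adjusted p of a member was 0.345. At an unadjusted p under 0.05, 29 members were lower and 0 higher in the high group, while 6.31% of all IDs were lower and 3.18% higher at that threshold. The members' share of lower IDs was 64.4%. All 45 had a log2 fold change below 0, against 52% of all IDs, and their median was -0.49 against -0.02 for all IDs. In 8 members, 17.8% of the 45, every high androstenone testis lay below every low one, against 1.1% of all IDs. DESeq2 called 1 member, an ID of RPS25, lower in the high group (-0.63 ± 0.18, SE, adjusted p = 0.0497), among 38 higher and 82 lower of all IDs.

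The members varied together from library to library, so these counts do not stand for independent results. Within testis, after removal of the group means, the median correlation of a member with the mean of the other members was 0.85 over 10 libraries, and 33 of 45 members were above 0.7. The exceptions were RPL10L at -0.54, RPL7L1 at -0.36 and RPLP0 at -0.19. In liver the median was 0.76 over 10 libraries, the values of RPL7L1 and RPLP0 were 0.01 and 0.15, and 26 of 44 members were above 0.7. These correlations are descriptions, and the libraries share their depth and scaling.

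RPS25, RPS27A and RPL23A had the smallest unadjusted p in testis. The RPS25 ID XM_003129920.1, for a small subunit protein contacted by viral internal entry sites, was at 180, 236, 126, 160 and 190 CPM in the low androstenone testes. In the high androstenone testes it was at 140, 110, 107, 91.2 and 126 CPM. In the high group 2 testes reached above the lowest low one, and the log2 fold change was -0.66 ± 0.18 (SE, edgeR unadjusted p = 0.00269, adjusted p = 0.345). The second RPS25 ID gave -0.63 ± 0.19 (SE, edgeR adjusted p = 0.355), and reads of one transcript could have been counted on either.

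RPS27A was at 306, 475, 268, 315 and 445 CPM in the low androstenone testes. In the high group it was at 241, 261, 246, 183 and 260 CPM. The groups did not overlap, and the log2 fold change was -0.62 ± 0.19 (SE, edgeR unadjusted p = 0.00453, adjusted p = 0.347). RPL23A, which sits at the exit of the nascent chain, was at 372, 580, 332, 442 and 477 CPM in the low group. It was at 344, 301, 299, 241 and 307 CPM in the high group. A single high androstenone testis reached above the lowest low one, and the log2 fold change was -0.58 ± 0.18 (SE, edgeR unadjusted p = 0.00503, adjusted p = 0.354). No member had a log2 fold change above 0 in testis. RPLP0, the member closest to 0, had -0.10 ± 0.20 (SE, edgeR adjusted p = 0.898).

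**Figure D4:**
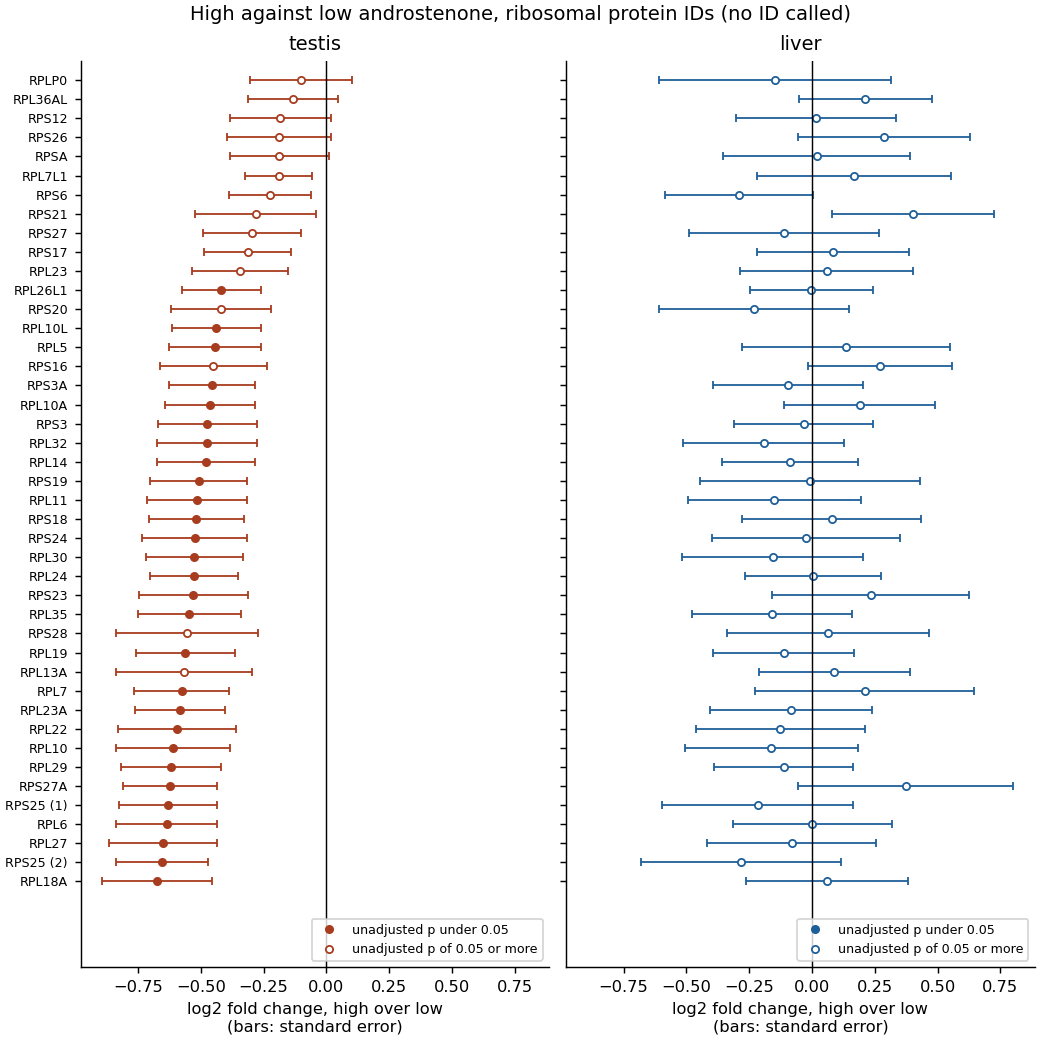
Log2 fold change of high over low androstenone for 43 ribosomal protein IDs, in testis (left) and liver (right), in the same order; bars are standard errors, filled circles have an unadjusted p under 0.05. All IDs drawn lay below 0 in testis and 28 circles are filled, whereas the liver values lie on both sides of 0 with 0 filled, and RPL10L was not tested in liver.

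Markers of other cells were compared between the same testes, and 0 of them passed edgeR's adjusted test. HBB, the hemoglobin chain used as a marker of blood, ranged from 36.7 to 344 CPM with a median of 138 CPM at low androstenone, and from 15.9 to 68.8 CPM with a median of 52.9 CPM at high androstenone (edgeR unadjusted p = 0.00482, adjusted p = 0.354). The study's own DESeq analysis did report HBB, with other hemoglobin genes, as lower in high androstenone testes. The 7 leukocyte markers CD14, CD2, CD3D, CD3E, CD79A, ITGAM and PTPRC summed to between 11.3 and 19.9 CPM in the low group and between 9.66 and 13.0 CPM in the high group, and 2 of the 7, CD3E and PTPRC, were lower at an unadjusted p under 0.05. The 4 spermatid markers ACRV1, ODF1, SPATA18 and TNP1 summed to 997 to 3663 CPM in the low group and 2283 to 3161 CPM in the high group. The 3 spermatocyte markers PGK2, SPO11 and SYCP3 summed to 799 to 1196 CPM and 1025 to 1213 CPM, the 4 Leydig cell markers to 995 to 4216 CPM and 1121 to 4933 CPM, and the Sertoli cell markers AMH and SOX9 to 9.53 to 21.8 CPM and 7.63 to 16.4 CPM. The ranges of these 4 lists overlapped, and at an unadjusted p under 0.05 the Leydig cell marker CYP17A1 alone differed, higher in the high group (edgeR unadjusted p = 0.0453, adjusted p = 0.513). The markers SPO11, AMH and HSD3B1 were not called between the tissues. Their means were 112, 6.15 and 3.15 CPM in testis and 104, 4.70 and 6.02 CPM in liver. Sums that include them are therefore limited as readings of a cell type. None of the markers was at 0 over the testis libraries. Their part in the lower ribosomal protein share was not tested.

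The share of reads that mapped to the reference was compared as well, and its mean difference of high minus low was -2.38 percentage points in testis, within the spread between samples (exact permutation test, p = 0.159). It was computed as the total count divided by the study's total of filtered reads. With this share as a covariate, 10 in place of 29 members were lower at an unadjusted p under 0.05, beside 2.95% of all IDs, and the median was -0.44. In 1 fit of all 20 libraries, which pools the spread of both tissues, 5 members were lower at that threshold, beside 3.15% of all IDs. Without the high androstenone testis of replicate 4 the number was 18, beside 4.75% of all IDs, and 0 members were called.

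The other translation genes in testis are read against the same 6.31% of all IDs that were lower at an unadjusted p under 0.05. Of the 9 IDs of translation factors and growth-regulated mRNAs, 3 were lower at an unadjusted p under 0.05, HNRNPA1 (-0.55 ± 0.24, SE), TPT1 (-0.53 ± 0.20, SE) and RACK1 (-0.47 ± 0.20, SE), the last a scaffold protein on the small subunit, with edgeR adjusted p from 0.441 to 0.489. Of 13 ribosome assembly IDs 1 was lower, of 30 mitochondrial ribosomal protein IDs 1 was lower, and of 6 signalling IDs 0 were, and 0 of these IDs were called. The medians were -0.29, -0.18, -0.07 and -0.19.

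In liver, the share of counts on ribosomal protein IDs did not separate the androstenone groups. The low androstenone livers had 3.01%, 4.51%, 3.38%, 2.85% and 3.48%. The high androstenone livers had 3.58%, 3.77%, 2.76%, 3.12% and 3.76%. The groups overlapped almost entirely, with means of 3.45% ± 0.65 and 3.398% ± 0.44 (SD, n = 5 each) and a difference of -0.048 percentage points (exact two-sided permutation test, p = 0.929).

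Of the 44 members tested in liver, 0 were called, as were 0% of all 15855 IDs, and 0 had an unadjusted p under 0.05, a threshold at which 1.69% of all IDs were lower and 1.24% higher. The log2 fold changes were above 0 for 21 and below 0 for 23 members, with a median of -0.0047 beside 0.01 for all IDs. The members with the smallest p among those above 0 were RPS21 (0.40 ± 0.32, SE), RPS16 (0.27 ± 0.29, SE) and RPS27A (0.37 ± 0.43, SE). Those below 0 were RPS6, the substrate of S6 kinases (-0.29 ± 0.29, SE), RPS25 (-0.28 ± 0.40, SE) and RPS20 (-0.23 ± 0.38, SE). All 6 differences lay within 2 standard errors of 0, and exact permutation tests of them gave p from 0.23 upward.

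The androstenone effect itself was compared between the tissues. The difference of the effects on the share, testis minus liver, was -1.07 percentage points and did not pass the test (exact permutation of the androstenone labels within each tissue, 63504 relabellings, p = 0.0937). In edgeR's interaction test 0 of the 45 members were called, as were 0% of 19065 IDs, and 0 members had an unadjusted p under 0.05. The fitted log2 fold change was lower in testis than in liver for 42 of 45 members, with a median difference of -0.34, and the lowest unadjusted p was 0.0742, for RPS27A. The effects in the tissues were therefore not shown to differ.

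The share of reads that mapped to the reference varied among libraries, and its relation to the ribosomal protein counts was examined within each tissue. In testis the share of counts on ribosomal protein IDs had a Pearson r of 0.62 (permutation p = 0.0503) and a Spearman rho of 0.60 (permutation p = 0.0723) with the mapped share over 10 libraries. Adjusted over the 4 relations computed, p was 0.101 and 0.145. Without the pair of testes farthest from the median mapped share r was 0.40, and after removal of the group means it was 0.42. In liver r was -0.24 (permutation p = 0.517, adjusted p = 0.619) and rho -0.27 (permutation p = 0.45, adjusted p = 0.60), and r was 0.05 without the farthest pair. The total count is part of both measures. For the high androstenone liver of replicate 3, the study's printed percents give fewer mapped than unmapped reads, but its printed read numbers give more. The mapped share used here was computed from the counts and not from the printed percents.

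In liver the mapped share moved with other RNA. The percent of counts on IDs of non-coding RefSeq records ranged from 3.53% to 30.5% in liver and fell with the mapped share, with r = -0.89 (permutation p = 0.00102, adjusted p = 0.00408), rho = -0.93 (permutation p = 0.00043, adjusted p = 0.00172) and r = -0.85 without the farthest pair. In testis this relation had r = -0.20 (permutation p = 0.619).

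The level of single members was then set against the mapped share, with the androstenone group in the model. In liver 8 of 44 members rose and 2 fell with it at an edgeR adjusted p under 0.05, with no fold required, 18.2% and 4.55% of the members. Over all 15855 IDs 14.6% rose and 13.5% fell, so the share of members that rose was near that of all IDs and the share that fell was lower. In testis 0 of 45 members and 0% of all 18340 IDs passed, and 0 members had an unadjusted p under 0.05.

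The members that rose in liver included RPLP0, RPL7, RPL5, RPL7L1, RPS27A, RPSA and RPL10. RPLP0 changed by 1.08 ± 0.24 (SE) on the log2 scale per 10 percentage points of mapped share (adjusted p = 0.00488), RPL7 by 1.00 ± 0.23 (adjusted p = 0.00471) and RPL7L1 by 0.94 ± 0.19 (adjusted p = 0.00272). The level of RPLP0 was 361 CPM in the high androstenone liver of replicate 4, which had the largest percent of non-coding IDs, and 2381 CPM in that of replicate 3, which had the smallest. RPS19, a small subunit protein known from Diamond-Blackfan anemia, changed by -0.92 ± 0.25 (adjusted p = 0.0127) and RPS18 by -0.68 ± 0.21 (adjusted p = 0.0283). Members thus moved in opposite directions with the mapped share. Other lists also had IDs called in liver, to be read against 14.6% of all IDs that rose and 13.5% that fell. Of the 9 IDs of translation factors and growth-regulated mRNAs 5 rose, and of 13 ribosome assembly IDs 4 rose, with 0 falling in both lists. Of 30 mitochondrial ribosomal protein IDs 9 rose and 2 fell, and of 6 signalling IDs 1 rose and 1 fell. Among the markers, 1 of the 4 for hepatocytes rose, as did 2 of the 7 for leukocytes, which summed to between 237.6 and 419.9 CPM in liver. At an unadjusted p under 0.05, 3 hepatocyte markers, 4 leukocyte markers and HBB rose. Other markers went the other way: 2 of 2 spermatocyte markers tested were called falling. Of 2 Sertoli cell markers, 1 fell at an unadjusted p under 0.05. Over all 15855 IDs, 3244 rose and 3162 fell at that threshold. The part of these markers in the change of the members was not tested.

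**Figure D5:**
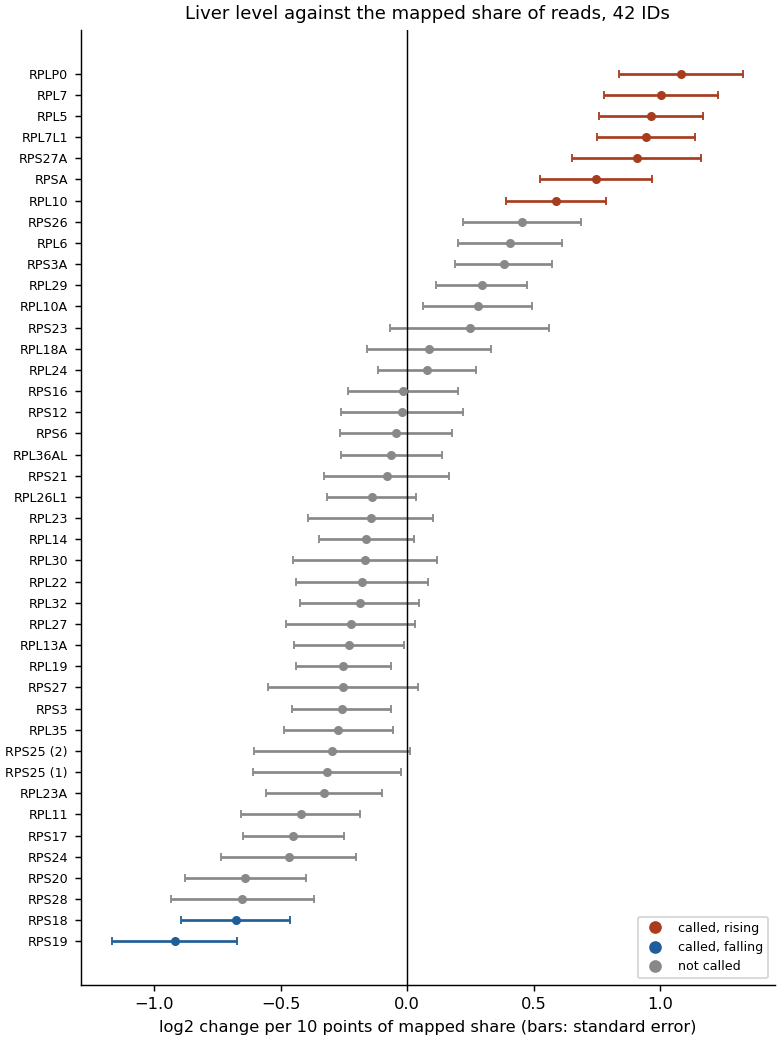
Change in level with the mapped share of reads for 42 ribosomal protein IDs in liver, as log2 change per 10 percentage points with standard errors, ordered by size and coloured by call. RPLP0 at 1.08 and RPS19 at -0.92 are the ends of the range, 7 of the IDs drawn were called rising and 2 falling, and 33 were not called.

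These calls rested on few libraries. Without the low androstenone liver of replicate 5, or the high androstenone liver of replicate 4, 4 members rose. Without the high androstenone liver of replicate 3 or 4, 0 fell, and without the low androstenone liver of replicate 2, 3 or 5, 1 fell, while without that of replicate 4, 4 fell. With total counts alone, 4 rose and 6 fell.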

How the data were processed

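Testis and liver RNA of 10 boars was sequenced with 1 library per sample. The authors filtered reads with CASAVA 1.7, aligned them with BWA to RefSeq mRNA and UniGene sequences of pig assembly Sscrofa 9.2, and deposited raw counts of reads per reference ID. SAMtools is also listed in the submitters' processing notes, and how reads with several matches were counted is not given in the sources used here. Each library lists 21785 lines for 21755 IDs, and 10 IDs listed 4 times with equal counts were used once. Symbols were matched by RefSeq accession.

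IDs with at least 10 counts over the samples compared were tested with edgeR 4.0.16 (TMM, quasi-likelihood test, Benjamini-Hochberg adjustment) in R 4.3.3, within each tissue by androstenone group, between tissues, and as their interaction. A standard error is the size of the log2 fold change over the root of F. Levels are TMM-normalized CPM, and exact tests of single IDs used log2(CPM + 0.5). The mapped share used the study's read totals, which are not counts of the files. The procedure was tested on simulated data. Shares and permutation tests were run in Python 3.11.15 (scipy 1.17.1, pandas 2.3.3, numpy 2.4.6; figures: matplotlib 3.10.9).

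Each sample is a separate boar within a tissue, and the labels do not pair testis with liver samples of 1 boar, so the tissue tests treat all samples as independent. The correlation of deviations between testis and liver samples of the same number ranged from -0.0244 to 0.0884 at low androstenone. At high androstenone it ranged from -0.0315 to 0.207. The means were 0.0389 and 0.0842, against -0.00976 and -0.0211 for samples of other numbers. These values do not settle whether a number marks 1 boar, and the samples were not paired. No libraries agreed within sampling noise.

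Members, gene lists and tests were chosen with earlier results of these data known. Named IDs were the 4 largest and 4 smallest tissue differences, paralogs and their partners, members of the stalk, the 5S particle, the ubiquitin fusions and the X-linked set, the 3 smallest p in each direction per tissue and the 3 largest SDs. Ranking by level per length was not possible because transcript lengths were not used here, and counts of different IDs are set together only as shares within a library. Alternatives were RLE and total-count scaling, TMM without the members, DESeq2 1.42.0, weaker and stricter filters, IDs summed per symbol, the mapped share as covariate, the replicate block, 1 fit of all 20 samples and leaving out each sample. The removal of IDs of non-coding records, that of the 10 most counted other IDs and the percent of ribosomal protein counts were added after the data were seen. Values of a few members are not reported here, and they are not drawn, although counts over all members include them.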

Additional observations from a re-analysis of the deposited data

Results flagged for a closer look

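A sample far from the others of its group was found in 7 of 82 groups of 5 tested, over the shares and the named members, where chance gives about 1 in 20. In the low androstenone testes, replicate 2 stood apart with RPL10L at 193 CPM, the lowest, and RPL7 at 3083 CPM, the highest. In the high androstenone testes, RPL26L1 stood apart at 78.3 CPM in replicate 1, the highest, and RPS27A at 183 CPM in replicate 4, the lowest. In the low androstenone livers, replicate 2 stood apart as the highest with RPS28 at 411 CPM and RPS6 at 1128 CPM. In the high androstenone livers, replicate 2 stood apart as the highest with RPS6 at 690 CPM.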

How the results depend on the processing

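With total counts alone, 15 members were called higher and 2 lower in testis than in liver, the median log2 fold change became 0.34, and the values of RPS27A (0.45), RPL7L1 (0.55), RPL7 (0.73), RPS27 (0.064) and RPL5 (0.34) turned to testis. The log2 fold change of RPL7 was 0.017 with the mapped share as a covariate. The tissue difference in share was 0.239 without the 10 most counted other IDs and no longer passed the test, and it turned to -0.576 without the 10 most counted IDs, which include RPLP0 in testis alone, and to -15775 CPM in summed TMM level. Between androstenone groups in testis, DESeq2 called 1 member lower, and 10 members were lower at an unadjusted p under 0.05 with the mapped share as a covariate, 5 in 1 fit of all 20 samples and 18 to 33 when 1 sample was left out. Within a tissue, the replicate block joined high and low samples of the same number. These are different boars, and the labels do not pair them. With this block, the share difference in testis was -1.11 with p = 0.0625, the smallest that an exact sign-flip test of 5 pairs allows. That p had to take this value because the groups do not overlap, so it adds nothing to the unpaired test. The block changed no call of a member between androstenone groups. Of the 5 high androstenone samples, 1 in testis and 0 in liver correlated best with the low one of their own number. Among the 5 testes of each androstenone group, 2 correlated best with the liver of their own number. The liver share difference was 0.0460 without the 10 most counted IDs or other IDs, 0.125 without non-coding IDs and -0.196 to 0.217 when 1 sample was left out, when RPS25 ranged from -0.48 to 0.17 and RPS20 from -0.45 to 0.070. For the mapped share in liver, 4 members rose and 6 fell with total counts alone, 4 fell with DESeq2, and 4 to 9 rose and 0 to 4 fell when 1 sample was left out. The correlation of the share with the mapped share was 0.67 in testis on the log2 scale (permutation p = 0.0348), 0.50 to 0.69 when 1 testis was left out and -0.39 to 0.035 when 1 liver was. Of 607 alternative values of named members, 576 kept direction and side of the threshold, 17 gained a call, 6 lost it and 8 turned direction. The causes were not tested. The depth limits RPL13A and, in liver, RPL10L.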
